A study of Mus musculus with 4 samples.

Results

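Mural nuclei are the nuclei that the deposited table of nuclei lists as passing quality control and names Mural, 806 of 39461 kept nuclei of the posterior hindbrain (2.04%). The authors' clustering split them into 2 clusters, numbered 13 with 706 nuclei and 98 with 100 nuclei. Nuclei were profiled in 4 libraries made with the 10x Genomics 3′ kit from a piece of hindbrain holding the area postrema (AP) and the nucleus of the solitary tract (NTS). The 2 libraries of the other group, AgRP-Gq;POMC-Gi, came from mice that carried AgRP-IRES-Cre+/- with hM3DGqfl/- and POMC-Dre+/- with hM4DGifl/-, in which the designer receptor hM3DGq activates AgRP neurons and hM4DGi inhibits POMC neurons once the drug CNO is given. The 2 control libraries are labelled WT, and by the study's methods control mice carried the receptor alleles without Cre and Dre. All mice were adults on a C57BL/6 background, of both sexes, and received 3 mg per kg of CNO, with tissue collected 1 h later. Mice of a group were pooled, and which mice went into which library is not stated, so p-values measure only the spread between these libraries.

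Mural cells are the cells wrapped around the endothelial tube. Pericytes sit on capillaries within the basement membrane, depend on PDGF signalling from the endothelium and are known for their part in the blood-brain barrier, whereas smooth muscle cells encircle arteries, arterioles and veins and contract through smooth muscle actin and myosin to set blood flow. In the AP, a circumventricular organ, capillaries are fenestrated, while those of the surrounding NTS carry a barrier.

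The libraries held 289 and 251 mural nuclei in control replicates 1 and 2 and 103 and 163 in AgRP-Gq;POMC-Gi replicates 1 and 2, with 535285, 428350, 147886 and 267401 unique molecular identifiers (UMIs). In this same order, which is kept for all lists of 4 values below, the median mural nucleus had 1723, 1560, 1280 and 1395 UMIs. Cluster 98 held 69834, 70916, 10585 and 24180 UMIs. Its CPM in the AgRP-Gq;POMC-Gi libraries therefore rest on few UMIs for all but abundant genes. The median over all mural nuclei was 1520.5 UMIs, close to the 1460 of endothelial nuclei and far under the 8704 of neurons. No barcode was shared between mural nuclei of different libraries, and 1 mural barcode was shared with a nucleus of any type in another library. Levels are given as CPM, a gene's UMIs scaled to a total of 1000000 UMIs in the same nuclei, as the mean ± SD over the 4 libraries unless a group is named. Clusters and cell types were made from the expression of the same nuclei, so differences between them are described and not tested.

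Levels of mural markers are given first. The authors named cell types from expression in these same nuclei, so the levels describe the label and do not test it. Pdgfrb, the receptor through which endothelial PDGF-B reaches pericytes, was at 1734, 1721, 1900 and 1761 CPM (1779 ± 82.6) and had a UMI in 89.8% of mural nuclei (exact Clopper-Pearson interval 87.5 to 91.8%, counting error only), against 1.77% of endothelial nuclei and 1.24% of the much deeper neurons. Rgs5, a regulator of G-protein signalling used as a pericyte marker, was at 1346 ± 75.1 CPM and in 77.2% of mural nuclei, but endothelial nuclei followed at 392 ± 93.1 CPM. The 4 libraries lay close together in both genes. Acta2, smooth muscle alpha-actin, differed from these in being held by 6.45% of mural nuclei, nearly all of them in cluster 98, where 50 of 100 nuclei had a UMI. After thinning each nucleus to 800 UMIs, Pdgfrb was found in 76.1% of cluster 13, 54.0% of cluster 98, 17.2% of fibroblasts and 0.887% of endothelial nuclei.

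**Figure D1:**
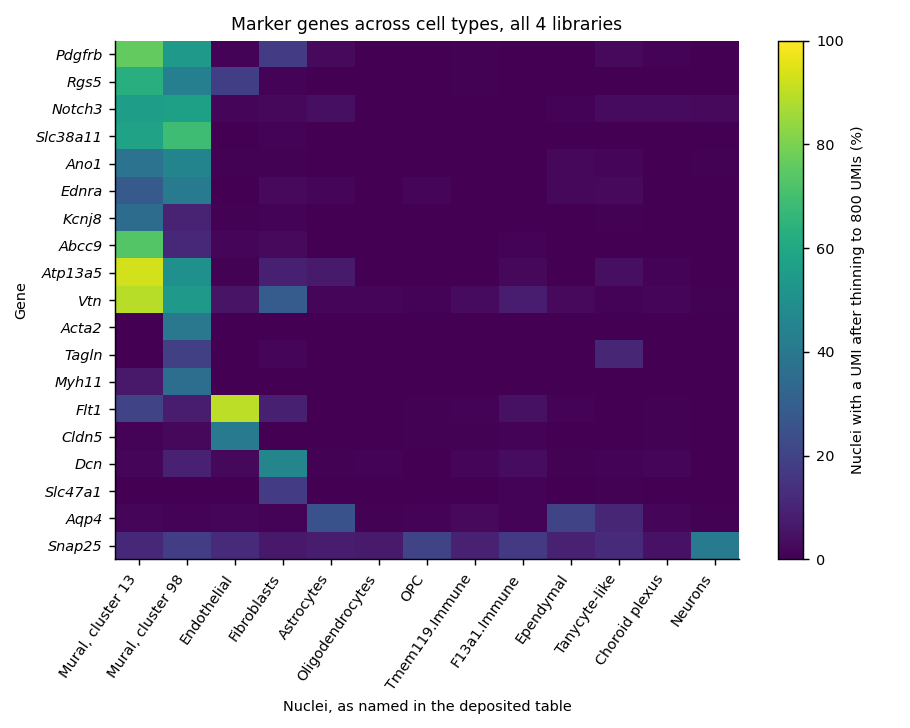
Heat map of the percentage of nuclei with at least 1 UMI of each gene (rows) in each cell type or mural cluster (columns), all 4 libraries together, after thinning every nucleus to 800 UMIs. Pdgfrb was found in 76.1% of cluster 13 and 54.0% of cluster 98 and in at most 17.2% of the other columns, whereas Snap25, a synaptic gene, was found in 4.79% to 41.4% of each column.

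Of 15 genes listed as mural identity genes, all had at least 20 mural UMIs and 12 (80.0%) had their highest level of the 14 cell types in mural nuclei, against 7.59% of the 9247 genes with at least 20 mural UMIs. Notch3, the receptor that keeps arterial smooth muscle mature, was at 1078 ± 89.4 CPM, 22.8 times the level in astrocytes, the next cell type. Ebf1, a transcription factor of the mural lineage, had the most UMIs of the list, 4625, at 3270 ± 242 CPM against 1852 ± 133 in endothelial nuclei. The 3 members whose highest level lay elsewhere were the transcription factors Epas1 (endothelial nuclei) and Tbx18 and Nr2f2 (fibroblasts).

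Among genes with at least 100 mural UMIs, the largest ratio of mural level to the highest other cell type belonged to Slc38a11, an amino acid transporter of the SLC38 family, at 88.7. It was at 1321, 1261, 1204 and 1343 CPM, against 14.5 ± 12.0 in fibroblasts, and was found in 77.6% of cluster 13 and 80.0% of cluster 98. It was detected in both clusters, 1.38 times higher in cluster 98. Kcnj8 (40.3 times the next cell type) and Abcc9 (37.4 times) followed, which encode the pore and the sulfonylurea receptor subunit of the vascular ATP-sensitive potassium channel. Next came the phosphodiesterase Pde4c at 32.6, the transcript Tbx3os1 at 30.6, Higd1b at 30.2 and Ano1, a calcium-activated chloride channel, at 30.2 times.

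The mural clusters parted along pericyte and contractile genes. The promoters of 2 contractile and 2 pericyte genes are shown as examples. Of these, Myl9 was not confined to cluster 98, since 288 mural nuclei held a UMI and that cluster has 100 nuclei. Each sequence is the 250 bases before the start of the gene in RefSeq (GRCm38.p6), 5′ to 3′ on the gene's strand. Capitals mark matches to the CArG box, the binding element of serum response factor, which activates smooth muscle genes together with myocardin; matches with at most 1 G or C among the 6 middle bases were allowed, and the box reads alike on both strands. They come from chr19:34255374-34255623 (Acta2, minus strand), chr2:156775214-156775463 (Myl9, plus strand), chr6:142571615-142571864 (Kcnj8, minus strand) and chr6:142702275-142702524 (Abcc9, minus strand).
Acta2: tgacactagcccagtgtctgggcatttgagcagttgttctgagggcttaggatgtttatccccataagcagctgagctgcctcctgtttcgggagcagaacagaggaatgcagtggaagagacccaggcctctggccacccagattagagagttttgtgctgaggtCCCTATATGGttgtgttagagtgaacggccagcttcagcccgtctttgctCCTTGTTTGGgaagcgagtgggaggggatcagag
Myl9: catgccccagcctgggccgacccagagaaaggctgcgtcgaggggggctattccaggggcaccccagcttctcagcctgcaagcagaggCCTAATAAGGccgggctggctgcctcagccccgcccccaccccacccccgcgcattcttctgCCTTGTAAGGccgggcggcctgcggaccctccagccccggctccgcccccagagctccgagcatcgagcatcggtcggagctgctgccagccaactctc
Kcnj8: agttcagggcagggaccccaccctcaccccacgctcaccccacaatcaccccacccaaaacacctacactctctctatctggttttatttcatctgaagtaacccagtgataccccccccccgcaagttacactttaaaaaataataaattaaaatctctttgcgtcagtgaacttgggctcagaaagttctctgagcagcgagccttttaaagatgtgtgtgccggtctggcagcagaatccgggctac
Abcc9: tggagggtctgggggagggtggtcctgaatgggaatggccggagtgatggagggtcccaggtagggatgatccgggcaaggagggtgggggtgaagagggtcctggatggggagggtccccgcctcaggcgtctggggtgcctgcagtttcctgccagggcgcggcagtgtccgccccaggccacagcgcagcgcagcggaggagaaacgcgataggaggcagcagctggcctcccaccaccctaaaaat

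Acta2 and Myl9, the latter a myosin light chain, each held 2 matches, of which 1 in Myl9 had no G or C among the middle bases. Kcnj8 and Abcc9 held none in this window. Such a match was found in 5 of the 27 contractile genes with a promoter sequence (18.5%: Acta2, Dmd, Myl9, Pcp4l1 and Pdlim3), in 2 of 22 pericyte genes (9.09%) and in 9.78% of 27025 genes with a promoter sequence. A match is a description of the letters and does not show binding. Kcnj8 and Abcc9 are neighbours on chromosome 6, on the same strand and 16247 bases apart.

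In cluster 98, 22 of the 29 contractile smooth muscle genes with at least 20 mural UMIs (of 34 listed) were at least 2-fold above cluster 13 and none was 2-fold below it, whereas 10.1% of all genes with that many UMIs were 2-fold higher. The median log2 ratio of cluster 98 to cluster 13 was 1.58 in this list and -0.03 over all genes. In 18 of the 29 genes cluster 98 was the higher in each library, which held for 5.68% of all genes. Acta2 was at 1045, 790, 2551 and 1241 CPM in cluster 98 (1407 ± 785, 186 UMIs) and had 2 UMIs in the 706 nuclei of cluster 13. Tagln, transgelin, an actin-binding protein of smooth muscle, was at 201, 437, 756 and 662 CPM in cluster 98 (69 UMIs), again against 2 UMIs in cluster 13. In each library both genes were near 0 in cluster 13 and among the clear contractile signals of cluster 98.

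Myh11, the smooth muscle myosin heavy chain, was less exclusive. It was at 644, 917, 945 and 290 CPM in cluster 98 and at 125, 137, 117 and 82.2 CPM in cluster 13, a ratio of 6.07, and 14.5% of cluster 13 nuclei had a UMI. Myocd, myocardin, was at 208 ± 71.1 CPM in cluster 98 and 4.29 ± 3.11 in cluster 13. Lmod1, leiomodin, was at 217 ± 90.7 and 37.0 ± 10.1 CPM. All 3 were higher in cluster 98 in each of the 4 libraries. Cald1, caldesmon, the contractile gene with most UMIs, did not part the clusters, at 2038 ± 133 CPM in cluster 98 and 2236 ± 135 in cluster 13. Cnn1, calponin, had 4 UMIs, all in cluster 98, and Actg2, the enteric smooth muscle actin, had none.

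Genes outside the contractile list also marked cluster 98. Among genes with at least 50 UMIs in cluster 98, the largest ratio after Acta2 and Tagln was that of Thsd4, a secreted protein that binds fibrillin, at 544, 677, 283 and 1034 CPM against 14.5 ± 10.2 in cluster 13. Myom1, a myomesin of the sarcomere, was at 444, 409, 378 and 372 CPM against 17.5 ± 12.8, and Ntn4, a netrin of basement membranes, at 302 ± 141 against 24.6 ± 8.44. Rcan2, a regulator of calcineurin, was 12.2 times higher, at 919 ± 431 CPM, and Sorbs2, an adaptor of the actin cytoskeleton that is also in the contractile list, 32.2 times, at 588 ± 73.9 CPM. All 5 were higher in cluster 98 in each library, although that cluster held only 10585 and 24180 UMIs of all genes in the AgRP-Gq;POMC-Gi libraries. Ctnna3, an alpha-catenin, reached 2398 ± 278 CPM in cluster 98 and 274 ± 61.1 in cluster 13, and oligodendrocytes held it at 2397 ± 44.7 CPM.

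**Figure D2:**
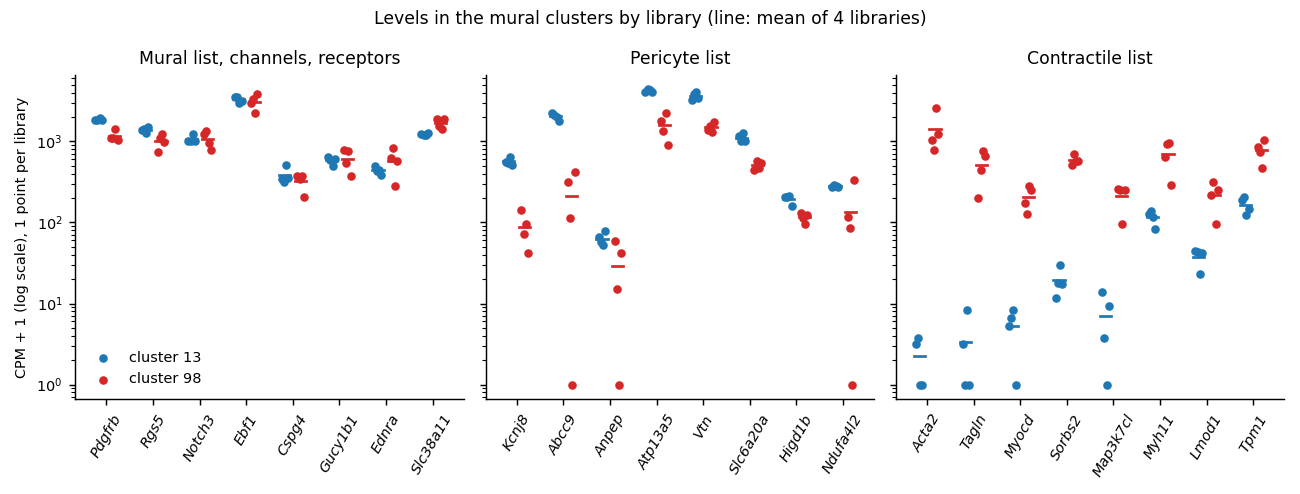
CPM + 1 on a log axis for 24 genes of 3 kinds in cluster 13 (blue) and cluster 98 (red), 1 point per library, with a line at the mean of the 4 libraries. The 8 contractile genes were higher in cluster 98 in each library, whereas Notch3 was at 1069 ± 104 CPM in cluster 13 and 1072 ± 252 in cluster 98.

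Pericyte genes moved the other way. Of the 29 pericyte genes with at least 20 mural UMIs, 16 were at least 2-fold higher in cluster 13 and none in cluster 98, against 8.52% of all genes, and the median log2 ratio of cluster 98 to cluster 13 was -1.07. Abcc9 was at 2262, 2137, 2010 and 1772 CPM in cluster 13 and at 315, 113, 0 and 414 CPM in cluster 98, 9.72 times lower on average. Kcnj8 was at 561, 540, 648 and 510 CPM in cluster 13 and at 143, 70.5, 94.5 and 41.4 CPM in cluster 98, 6.46 times lower. The clusters did not overlap in either gene. Atp13a5, a P-type ATPase, was 2.67 times higher in cluster 13 and Vtn, vitronectin, 2.44 times.

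The pericyte genes were lower in cluster 98 but not absent. Atp13a5 was still at 1573 ± 579 CPM there and in 63.0% of its nuclei, against 188 ± 78.6 CPM in fibroblasts, the next cell type. Vtn was at 1496 ± 184 CPM and in 70.0% of the nuclei, and Slc38a11, also listed with the pericyte genes, was the 1 member higher in cluster 98 in each library. Among genes with at least 50 UMIs in cluster 13, the one with the largest ratio to cluster 98 was outside the list: Emcn, endomucin, a sialoglycoprotein of endothelium, at 203 ± 46.1 and 17.7 ± 21.2 CPM (11.4 times), against 737 ± 126 CPM in endothelial nuclei.

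Counted per nucleus, 62.0% of cluster 98 had a UMI of Acta2, Tagln or Myocd and 32.0% one of Kcnj8 or Abcc9, and 12 nuclei had both. In cluster 13 the shares were 1.27% and 91.6%. More UMIs of the smooth muscle markers than of the pericyte markers were found in 34 of 100 nuclei of cluster 98, against 64 with more pericyte than smooth muscle marker UMIs, and in 0 of 706 of cluster 13 (which allows a share of up to 0.425%). By the markers listed for pericytes and for arterial or arteriolar smooth muscle, cluster 13 was pericyte-like and cluster 98 smooth-muscle-like, with 84.0% of cluster 98 nuclei also holding a UMI of the 7 pericyte markers. Since these marker sets differ in size and level, the per-nucleus counts are not a measure of mixed identity, and doublets were removed only as the authors did it.

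Channels and signalling enzymes that set vascular tone were compared in the same way. Of 34 genes with at least 20 UMIs, 13 were at least 2-fold higher in cluster 98, against 10.1% of all genes, and 3 in cluster 13, a share near the 8.52% of all genes. Pde3a, the cGMP-inhibited phosphodiesterase that degrades cAMP in smooth muscle, was at 1776, 1988, 2173 and 1365 CPM in cluster 98 and 420 ± 68.1 in cluster 13, with no overlap. Kcnab1, a beta subunit of voltage-gated potassium channels, and Trpc6, a receptor-operated cation channel, were each 10.3 times higher in cluster 98, the latter on 38 UMIs. Cacnb2, an L-type calcium channel beta subunit, was at 2232 and 898 CPM on average, and Kcnma1, the large-conductance calcium-activated potassium channel, at 225 and 47.6 CPM. Kcnj8 and Abcc9 were among the 3 genes higher in cluster 13. Prkg1, the cGMP-dependent kinase that acts downstream of nitric oxide, had the most UMIs of the list, 6168, and differed little between clusters, at 4225 ± 443 and 5313 ± 1190 CPM.

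Of 54 listed receptors for vasoactive signals, 16 had at least 20 mural UMIs, beside 9247 of all 32285 genes. No mural UMI was found for 8 of the 54, beside 14257 of the 32285. Among these 8 was Mc4r, the melanocortin receptor targeted by POMC and AgRP peptides. A count of 0 in 806 nuclei allows a share of nuclei with a UMI of up to 0.372%. Ednra, the endothelin A receptor, which mediates constriction, was at 516, 497, 433 and 404 CPM (462 ± 52.8), 8.95 times the next cell type, and its levels in the clusters (441 ± 47.0 and 578 ± 226 CPM) overlapped. P2ry14, the UDP-glucose receptor, was at 565 ± 59.2 CPM and 2.01 times higher in cluster 13. Tbxa2r, the thromboxane receptor, was 4.87 times higher in cluster 13, at 83.2 ± 14.4 CPM on 95 UMIs against 4 UMIs. Adra1a, the alpha-1A adrenergic receptor, and Agtr1a, the angiotensin II type 1A receptor, had 12 and 3 UMIs.

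Npy1r, the neuropeptide Y receptor Y1, which mediates vasoconstriction by sympathetic NPY, had 38 mural UMIs. In cluster 98 it was at 158, 141, 189 and 0 CPM and in cluster 13 at 0, 16.8, 43.7 and 12.3 CPM, so that AgRP-Gq;POMC-Gi replicate 2 went against the other 3 libraries. At 800 UMIs per nucleus, 9 of 100 cluster 98 nuclei kept a UMI, as did 0.850% of cluster 13, 0.797% of neurons and 0.127% of endothelial nuclei. Lepr, the leptin receptor, had 4 mural UMIs against 154 ± 116 CPM in fibroblasts. Insr, the insulin receptor, was at 230 ± 30.5 CPM and in 29.3% of mural nuclei, under the 637 ± 38.7 CPM of endothelial nuclei. Gipr, the receptor of the incretin GIP, had 43 UMIs, all of them in cluster 13, at 34.4, 28.0, 72.8 and 28.8 CPM.

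Most ligands and receptors of the exchange with endothelium stayed within 2-fold between the clusters. Of 31 such genes with at least 20 UMIs, 4 were at least 2-fold higher in cluster 98 and 6 in cluster 13 (10.1% and 8.52% over all genes). Angpt1, the angiopoietin that activates the endothelial receptor Tek, was at 415, 353, 189 and 82.7 CPM in cluster 98 and 30.6 ± 10.9 in cluster 13. It was higher in cluster 98 in each library, on 96 mural UMIs in all and few in the AgRP-Gq;POMC-Gi libraries. Angpt2, its antagonist, had 35 UMIs at 73.7 ± 53.8 and 19.6 ± 11.4 CPM. S1pr3, a sphingosine-1-phosphate receptor, was at 195 CPM in cluster 13 and 82.5 in cluster 98, and Gja4, the connexin 37 gene, at 96.7 and 135.

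Among 29 basement membrane and matrix genes with at least 20 UMIs, 4 were at least 2-fold higher in each cluster. Itga8, an integrin subunit of smooth muscle, was 11.6 times higher in cluster 98 on 39 UMIs, Lama5, a laminin subunit, 11.3 times on 23 UMIs and Timp3, an inhibitor of matrix metalloproteinases, 3.46 times, at 285 ± 32.4 against 82.4 ± 16.6 CPM. Lama2, another laminin subunit, was at 1791 ± 193 CPM, level with the 1868 ± 805 of fibroblasts. Eln, elastin, had 14 UMIs in cluster 98, from 2 of the 4 libraries, and 2 in cluster 13. Transporters leaned to cluster 13, with 7 of 22 at least 2-fold higher there and none in cluster 98. Abcc9, Slc6a13 and Atp13a5 are in the pericyte list too, so this lean partly repeats the pericyte result. For Slc4a4, another member with a large ratio, 1 nucleus held 62 of 193 UMIs. Slc12a2, the sodium-potassium-chloride cotransporter NKCC1, was at 669 ± 42.2 CPM in cluster 13 and 211 ± 124 in cluster 98. Transcription factors of lineage and position were split, with 3 of 32 higher in cluster 98 (Myocd and Prrx1 among them) and 4 in cluster 13 (Hoxb2 and Hic1 among them, on 4 and 3 UMIs in cluster 98), against 10.1% and 8.52% over all genes. Mef2c, a partner of myocardin, was higher in cluster 98 in each library, at 1171 ± 286 against 775 ± 60.0 CPM.

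Markers of other cell types were present at low levels. Flt1, the VEGF receptor that marks endothelium, had a UMI in 32.6% of mural nuclei, at 326 ± 42.7 CPM against 5143 ± 634 in endothelial nuclei. The 14 endothelial genes summed to 559 ± 260 CPM in cluster 98 and 530 ± 55.5 in cluster 13, and of the 7 with at least 20 UMIs 3 were at least 2-fold higher in cluster 98 and 0 in cluster 13, while Flt1 was at 176 ± 87.7 and 349 ± 44.1 CPM. Cldn5, the claudin of endothelial tight junctions, was at 14.5 ± 6.84 CPM against 785 ± 186. Dcn, decorin, a fibroblast gene, was 6.84 times higher in cluster 98 than in cluster 13 and higher in each library, at 157 ± 62.2 CPM, against 1254 ± 449 in fibroblasts. The fibroblast list as a whole was mixed. It summed to 823 ± 312 CPM in cluster 98 and 997 ± 44.2 in cluster 13, with Slc6a13 of the pericyte list among its members. Of its 7 genes with at least 20 UMIs 3 were higher in cluster 98 and 2 in cluster 13 in each library, against 5.68% and 14.5% of all genes. Their median log2 ratio of cluster 98 to cluster 13 was 0.717. A UMI of the fibroblast markers was held by 24.0% of cluster 98 nuclei and 11.5% of cluster 13 nuclei. Snap25 was in 21.5% of mural and 22.2% of endothelial nuclei, against 96.2% of neurons. Such like shares of Snap25 in mural and endothelial nuclei were not read as expression, and their source was not tested. Flt1 was less even across cell types. After thinning it was in 20.4% of cluster 13, 8.0% of cluster 98 and 8.91% of fibroblasts. In astrocytes, oligodendrocytes and neurons it was in 0.228%, 0.279% and 0.311%.

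Mural nuclei made up 2.97%, 2.50%, 1.06% and 1.64% of the nuclei. The share was higher in both control libraries (2.73 ± 0.336%, n = 2) than in both AgRP-Gq;POMC-Gi libraries (1.35 ± 0.408%, n = 2), a difference of -1.39 percentage points. The exact permutation test over libraries (two-sided, n = 2 per group) gave p = 0.333, the smallest p it allows. Neurons were 26.3 ± 1.29% of control and 37.3 ± 1.06% of AgRP-Gq;POMC-Gi nuclei. Of non-neuronal nuclei, 3.71 ± 0.390% and 2.14 ± 0.614% were mural (exact permutation p = 0.333). Of endothelial, mural and fibroblast nuclei together the mural share was 49.9%, 28.3%, 25.6% and 29.9%, so that the groups overlapped. Endothelial nuclei were also a lower share of both AgRP-Gq;POMC-Gi libraries (2.24%, 2.45%, 1.16% and 2.13%; exact permutation p = 0.333, n = 2 per group). Fibroblast nuclei numbered 72, 391, 186 and 170 and choroid plexus nuclei 2, 436, 6 and 329, so libraries differed in the tissue they held within each group. The neuron share differed between the groups as well. With 2 libraries per group, the dissection and the group cannot be told apart in these shares.

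**Figure D3:**
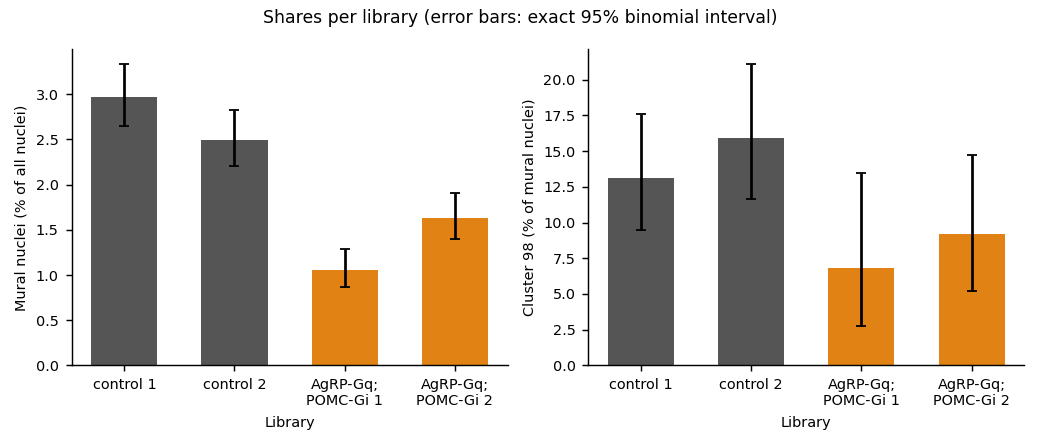
Bars give, for each library, the percentage of all nuclei that were mural (left) and the percentage of mural nuclei in cluster 98 (right), control in grey and AgRP-Gq;POMC-Gi in orange, with exact 95% binomial intervals that cover counting error only. Both control bars (2.97% and 2.50%) stand above both orange bars (1.06% and 1.64%) on the left.

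Cluster 98 was also a smaller part of AgRP-Gq;POMC-Gi than of control mural nuclei. Its members numbered 38, 40, 7 and 15, or 13.2%, 15.9%, 6.80% and 9.20% of mural nuclei. The groups did not overlap (14.5 ± 1.97% and 8.00 ± 1.70%, n = 2 each), but the exact Clopper-Pearson intervals of control replicate 1 (9.48 to 17.6%) and AgRP-Gq;POMC-Gi replicate 2 (5.24 to 14.7%) did, and the exact permutation test again gave its smallest p, 0.333. Contractile genes summed over all mural nuclei came to 7914, 8234, 6924 and 7154 CPM.

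The group comparison asked whether mural expression differed from control after AgRP activation and POMC inhibition. Of 5723 genes found in 5% or more of mural nuclei, 25 (0.437%) passed an adjusted p of 0.05 in edgeR's quasi-likelihood test with Benjamini-Hochberg adjustment, 21 higher (0.367%) and 4 lower (0.0699%) in AgRP-Gq;POMC-Gi. With RLE in place of TMM factors they were 44, of which 32 were higher and 12 lower. Without AgRP-Gq;POMC-Gi replicate 2 they were 7, and without control replicate 2 they were 14. DESeq2 called 9. The groups did not overlap in 2070 of the 5723 genes, called or not (909 higher and 1161 lower). None of the 15 mural identity, 27 pericyte and 20 contractile genes tested was called, and of the 30 channel and tone genes tested 1 was, Pde10a, a phosphodiesterase of cyclic nucleotides, at 120, 88.7, 216 and 262 CPM. The Pde10a call was kept in 7 of 13 alternatives, and over all 13 the log2 fold change lay between 0.42 and 1.48. It was lost in DESeq2, in thinned nuclei, in nuclei without neuron UMIs and without control replicate 1, control replicate 2 or AgRP-Gq;POMC-Gi replicate 2. The log2 fold changes of the markers were 0.13 ± 0.19 (SE) for Pdgfrb, 0.07 ± 0.19 for Rgs5 and 0.08 ± 0.28 for Acta2.

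Zbtb16 (chr9:48654297-48836222 in GRCm38, minus strand), a zinc finger transcription factor induced by glucocorticoids, was lower. Mural nuclei held it at 501, 341, 169 and 108.5 CPM, with both control libraries above both AgRP-Gq;POMC-Gi libraries. The log2 fold change was -1.64 ± 0.25 (SE), with an adjusted p of 2.615e-05 in edgeR. The call was kept in 11 of 13 alternatives (adjusted p from 1.956e-09 to 0.119 in edgeR or DESeq2) and was lost in 2 of the fits that left out a library, control replicate 1 or AgRP-Gq;POMC-Gi replicate 2. The share of nuclei with a UMI was 51.2%, 35.9%, 15.5% and 14.1%, and 33.2%, 19.5%, 9.71% and 7.98% after thinning to 800 UMIs. Its 468 UMIs lay in 277 nuclei, with at most 7 in any one. In endothelial nuclei of the same libraries it was at 897, 847, 489 and 274 CPM, in fibroblasts at 951, 798, 379 and 352 and in oligodendrocytes at 939, 724, 391 and 316, with both control libraries the higher in each of these cell types.

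Il34 (chr8:110741829-110805924, minus strand), a ligand of the CSF1 receptor of microglia, was lower by a smaller amount. It was at 1084, 936, 527 and 591 CPM, again without overlap, with a log2 fold change of -0.81 ± 0.20 (SE) and an adjusted p of 0.03292 in edgeR. It was the one called gene whose highest level of all cell types lay in mural nuclei, at 784 ± 268 CPM over the 4 libraries against 361 ± 143 in fibroblasts and 12.7 in neurons. It was found in 54.0%, 52.2%, 35.9% and 36.2% of nuclei after thinning. The call did not hold in DESeq2, nor in any of the 4 fits that left out 1 library, and it was kept in 5 of 13 alternatives (adjusted p from 0.002075 to 0.8537). The Il34 call was also lost in thinned nuclei, in nuclei without endothelial UMIs and in nuclei without neuron UMIs. In fibroblasts Il34 was at 562, 240, 364 and 278 CPM, where the groups overlapped.

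**Figure D4:**
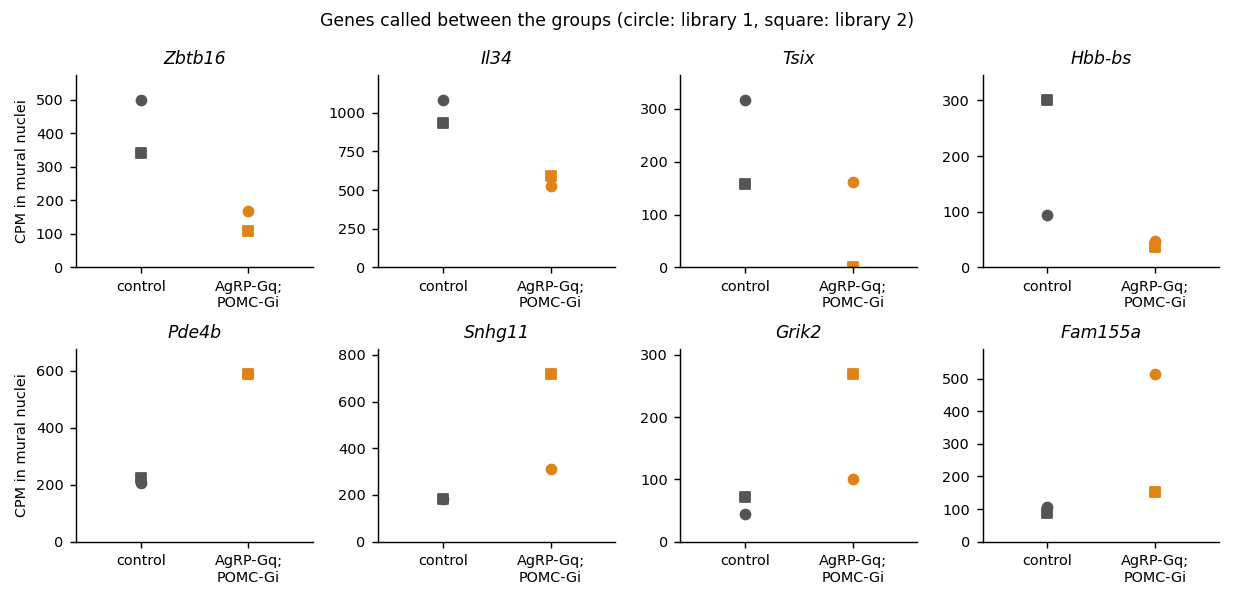
CPM in mural nuclei of each library for 8 of the 25 called genes, control in grey and AgRP-Gq;POMC-Gi in orange, circles for library 1 and squares for library 2, each panel with its own axis from 0. Zbtb16 and Il34 were lower in both AgRP-Gq;POMC-Gi libraries, while Snhg11 and Grik2 were highest in replicate 2 and Fam155a in replicate 1.

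The other 2 lower genes were Hbb-bs, a beta-globin of red blood cells, and Tsix, the antisense transcript of Xist. Hbb-bs was at 93.4, 301, 47.3 and 37.4 CPM, and 1 nucleus, of control replicate 2, held 44 of its 196 UMIs. The call was kept in 7 of 13 alternatives and was lost in DESeq2, in nuclei without endothelial UMIs, in thinned nuclei, without control replicate 2 and without either AgRP-Gq;POMC-Gi library. Tsix was at 318, 159, 162 and 0 CPM, so that control replicate 2 and AgRP-Gq;POMC-Gi replicate 1 were close together. That call was kept in 8 of 13 alternatives and was lost in DESeq2, with filterByExpr, in nuclei without neuron UMIs and when AgRP-Gq;POMC-Gi replicate 2 or control replicate 1 was left out. Xist, the RNA of the inactive X chromosome, was at 878, 495, 703 and 0 CPM in the same nuclei and did not pass the test (adjusted p of 0.4246 in edgeR). Mice of both sexes were used, the sexes behind each library are not stated, and their part in the results was not tested. Xist and Tsix overlap on opposite strands, and the strand setting of the counting is not given in the sources used here.

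All 21 higher genes had their highest level in another cell type: 9 in oligodendrocytes, 6 in neurons, 3 in oligodendrocyte precursor cells (OPC) and 1 each in fibroblasts, tanycyte-like cells and Tmem119 immune cells. Of the 9247 genes with at least 20 mural UMIs, 7.59% had their highest level in mural nuclei, so most genes were highest elsewhere. In 20 of the 21 higher genes the level in neurons was above that in mural nuclei, a share that was not counted over all genes. Pde4b (chr4:102087543-102607259, plus strand), a cAMP phosphodiesterase, had the lowest p. It was at 207, 222, 588 and 587 CPM, with a log2 fold change of 1.49 ± 0.20 (SE) and an adjusted p of 1.483e-06 in edgeR, and it was the only gene called in all 13 alternatives. Oligodendrocytes held it at 8267 CPM, and 123 mural nuclei held a UMI, 1 of them with 42. The share of mural nuclei with a UMI was 15.6%, 10.4%, 17.5% and 20.9%, in which the groups lay closer together than in CPM.

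The UMIs of the higher genes were concentrated in few nuclei. The single nucleus with most held between 5.37% and 34.5% of the mural UMIs of each of the 21 genes (median 11.5%). In 19 of the 21 it belonged to an AgRP-Gq;POMC-Gi library, in 14 to replicate 2. That is partly set by the choice of genes higher in this group. The same percentages were not computed over all genes tested, and Slc4a4, which was not called, had 32.1% in 1 nucleus. For Grik2, a kainate receptor subunit, 1 nucleus held 49 of 142 UMIs, and for Snhg11, a long non-coding RNA of neurons, 1 held 79 of 414. For Fam155a, a subunit of the sodium leak channel complex, 1 nucleus of AgRP-Gq;POMC-Gi replicate 1 held 57 of 211. The calls were kept in 8 of 12 alternatives for Grik2, 10 of 13 for Snhg11 and 9 of 11 for Fam155a. Settings in which a gene was found in too few nuclei to be tested are left out of these counts, so 12 and 11 stand in place of 13. Leaving out AgRP-Gq;POMC-Gi replicate 2 ended the first 2 calls, control replicate 1 that of Grik2, and AgRP-Gq;POMC-Gi replicate 1 that of Fam155a. The Grik2 call was also lost in DESeq2 and in nuclei without neuron UMIs. That of Snhg11 was also lost in thinned nuclei and in nuclei without neuron UMIs, and that of Fam155a in DESeq2. The share of nuclei with a Grik2 UMI was 4.50%, 6.77%, 8.74% and 8.59%, against 44.8, 72.4, 101 and 269 CPM. For the lower genes Zbtb16 and Il34 the top nucleus held 7 of 468 and 16 of 1217 UMIs.

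**Figure D5:**
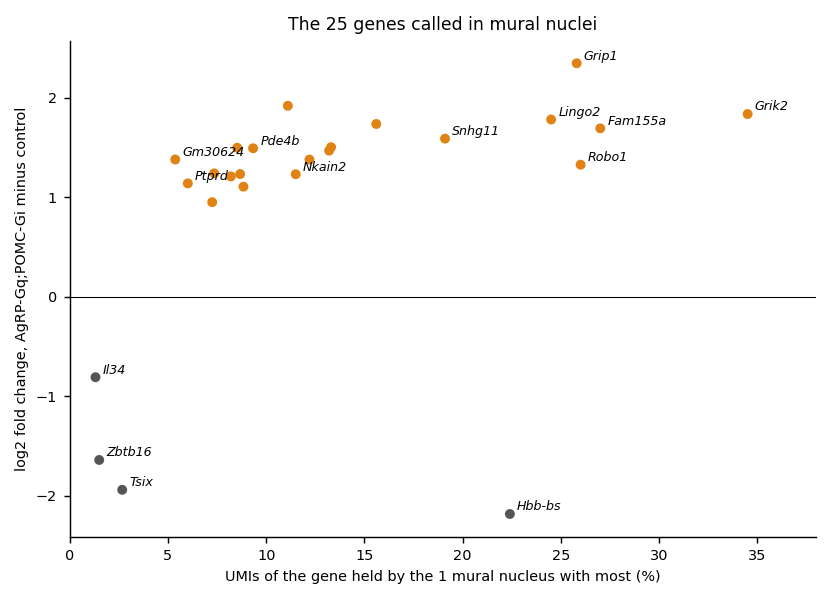
Each point is 1 of the 25 genes called in mural nuclei, with the percentage of its mural UMIs in the 1 nucleus that held most on the x axis and the log2 fold change, AgRP-Gq;POMC-Gi minus control, on the y axis, orange for higher and grey for lower genes. Il34 lies at 1.31% with Zbtb16 beside it, Hbb-bs at 22.4%, and the 21 higher genes between 5.37% and 34.5%.

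The 10 genes listed for neurons summed to 1054, 1048, 1156 and 1956 CPM in mural nuclei, highest in AgRP-Gq;POMC-Gi replicate 2, and to 962, 1581, 780 and 1507 CPM in endothelial nuclei; no member was called in mural nuclei, where Meg3, a maternally expressed long non-coding RNA, was at 594, 586, 751 and 1178 CPM (adjusted p of 0.05784 in edgeR). Meg3 was called in cluster 13, a call kept in 4 of 10 alternatives and lost with library size only, in DESeq2, with filterByExpr and in 3 of the 4 fits that left out a library, those without control replicate 1, control replicate 2 or AgRP-Gq;POMC-Gi replicate 2. In mural nuclei with no UMI of Rbfox3, Snap25 or Syt1, a setting chosen after seeing the data, 11 genes were called, 5 higher and 6 lower, of which 6 were among the 25, and Lingo2 and Dlg2 turned direction. Oligodendrocyte markers summed to 1407, 1424, 1488 and 1537 CPM and endothelial markers to 540, 521, 568 and 471 CPM.

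In cluster 13 alone, 26 of 5657 genes (0.46%) were called, 20 higher (0.354%) and 6 lower (0.106%), and 21 of them were among the 25 of all mural nuclei (80.8% of the first list, 84.0% of the second). Without AgRP-Gq;POMC-Gi replicate 1 they were 60, without control replicate 1 they were 16, and without control replicate 2 they were 13; DESeq2 called 2. Zbtb16 was lower by 1.56 ± 0.26 (SE) on the log2 scale and Il34 by 0.80 ± 0.20, with adjusted p of 8.033e-05 and 0.03371 in edgeR. In cluster 13 the Zbtb16 call was kept in 8 of 10 alternatives and lost in DESeq2 and without control replicate 1, and the Il34 call was kept in 6 of 10 and lost in DESeq2, with filterByExpr and without either control library. None of the 26 calls was kept in all alternatives. The 2 further lower genes were Gpc5 and Trpm3, for which 1 nucleus held 97 of 476 and 85 of 478 mural UMIs. The Gpc5 call was lost with library size only, in DESeq2, with filterByExpr and without control replicate 2, and its log2 fold change ranged from -4.37 to -0.77. The Trpm3 call was lost in DESeq2, with filterByExpr and without control replicate 2. Malat1, an abundant nuclear non-coding RNA, was at 127700, 122000, 165400 and 128900 CPM in cluster 13, a log2 fold change of 0.29 ± 0.06 (SE) with an adjusted p of 0.00761, and AgRP-Gq;POMC-Gi replicate 2 lay close to control replicate 1. The call was kept in 2 of 10 alternatives and was lost, among others, in DESeq2, with a replicate block and without control replicate 1, control replicate 2 or AgRP-Gq;POMC-Gi replicate 1. Malat1 was also highest in AgRP-Gq;POMC-Gi replicate 1 in endothelial nuclei (64670, 69240, 87730 and 70410 CPM), oligodendrocytes and neurons. In cluster 98, with 7 and 15 nuclei in the AgRP-Gq;POMC-Gi libraries, none of 6371 genes was called by edgeR or DESeq2, and 227 and 34 had an unadjusted p under 0.05; without control replicate 2 edgeR called 1.

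Zbtb16 belonged to a list of 16 genes induced by glucocorticoids, of which 11 were tested in mural nuclei. It was the only one called, but 8 of the 11 had a log2 fold change below 0, and the median was -0.68 against 0.01 over all genes tested. Fkbp5, a chaperone of the glucocorticoid receptor, was at 93.4, 72.4, 20.3 and 41.1 CPM (log2 fold change -1.28 ± 0.41 (SE), adjusted p of 0.2188 in edgeR), and Ddit4, an inhibitor of mTOR signalling, at 54.2, 39.7, 13.5 and 14.96 CPM. Klf9, Mt1 and Sgk1 had log2 fold changes of -0.11, -0.02 and 0.11. Summed over the list, mural nuclei had 1500, 1338, 1041 and 774 CPM and endothelial nuclei 3295, 3219, 2027 and 1752. The list was written with the lower level of such genes in other cell types of these libraries known.

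Circadian genes around Dbp and the period genes were also below 0 in 6 of 7 tested. Their median log2 fold change was -0.40 and none was called. In the Arntl group of clock genes all 3 tested were below 0 too, with a median of -0.30 and none called. Over all genes tested, 2799 of 5723 were below 0, the median was 0.01 and 0.437% were called. Nr1d2, a nuclear receptor of the clock, was at 200, 224, 115 and 153 CPM and Per2, a period gene, at 59.8, 53.7, 13.5 and 48.6. Of the study's 10 immediate early genes (IEGs) 1 was detected widely enough to be tested: Btg1, an anti-proliferative gene, at 129, 110, 156 and 82.3 CPM, with a log2 fold change of -0.08 ± 0.30 (SE). Summed, the 10 IEGs were at 206, 182, 284 and 221 CPM in mural nuclei and at 292, 251, 367 and 461 CPM in endothelial nuclei, sums that were not tested.

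A test of the difference between the mural and the endothelial group effect called 5 of 6896 genes (0.0725%), Csmd1, Lingo2, Rbfox1, Snhg11 and Grik2, all with a higher log2 fold change in mural nuclei. Leaving out control replicate 1 gave 30 genes, control replicate 2 gave 10, and the AgRP-Gq;POMC-Gi libraries 1 and 2 gave 1 and 3. Neither Zbtb16 nor Il34 was among them. The same test between clusters 98 and 13 called 2 of 7004 (0.0286%), Lrrtm3 and Gpc5. No gene of the mural identity, pericyte or contractile lists was called in either.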

How the data were processed

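Single-nucleus RNA-seq libraries of mouse posterior hindbrain, 2 per group, were used. Nuclei had been sorted by DRAQ5 from frozen tissue. The deposited UMI counts per gene and nucleus were made by the authors with Cell Ranger 7.0.0, and nuclei were filtered, freed of doublets, clustered and named by the authors with Seurat 4.3.0 among other tools; no further doublet removal was run. The deposited table of nuclei also gives the authors' counts of UMIs and genes and percent of mitochondrial UMIs per nucleus; its columns on immediate early gene scores hold the authors' own comparison and were not used. UMI and gene totals recomputed from the matrices equalled the table's in every barcode.

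Mural counts were summed per library, and genes found in 5% or more of the nuclei were tested with edgeR 4.0.16 (quasi-likelihood, TMM factors, R 4.3.3) at a Benjamini-Hochberg adjusted p of 0.05. Differences between cell types or clusters in the group effect were tested as an interaction term with library as a block. DESeq2 1.42.0, RLE factors, library size only, other gene filters, a replicate block, nuclei without endothelial or neuron UMIs, thinned nuclei and leaving out each library were alternatives. Thinning drew 800 UMIs per nucleus. Ratios between clusters used genes with at least 20 mural UMIs and a floor of 3 UMIs per cluster. Named genes were the markers, the 15 with the highest ratio to other cell types, the 12 with the largest ratio in each cluster, the called genes and the leading members of each list, of which a part is given. The scripts were tested on simulated data. Members and lists were chosen with earlier results of these data known.

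Promoters and gene positions are from RefSeq (GRCm38.p6) and GENCODE (GRCm38), matched by gene name or identifier; the submitters' processing notes name GRCm38 for the counting. Some listed genes are not reported here.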

Additional observations from a re-analysis of the deposited data

Results flagged for a closer look

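The following differences in group effect passed the test of the difference itself. They are given as values, with the log2 fold change of AgRP-Gq;POMC-Gi against control in each set of nuclei.

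Between mural and endothelial nuclei, Csmd1, a complement regulator of the brain, differed by 3.51 (1.65 and -1.83), Lingo2, a neuronal membrane protein, by 3.35 (1.76 and -1.56), Rbfox1, a neuronal splicing factor, by 2.38 (0.91 and -1.44), Grik2 by 2.17 (1.82 and -0.49) and Snhg11 by 1.72 (1.58 and -0.17).

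Between clusters 98 and 13, Lrrtm3, a synaptic adhesion protein, differed by -3.30 (-2.25 and 0.95) and Gpc5, a glypican, by 5.01 (3.46 and -1.44). Fits that left out a library were not run for this difference between the clusters. Over all 6371 genes tested in cluster 98 the median log2 fold change was -0.465, with 4245 genes below 0. In cluster 13 the median was 0.01, so values of cluster 98 below 0 are not particular to a gene. Cluster 98 had 7 and 15 AgRP-Gq;POMC-Gi nuclei, and 1 nucleus held 97 of the 476 mural UMIs of Gpc5. Of these UMIs 465 lay in cluster 13, so the Gpc5 value of cluster 98 rests on 11 UMIs, 9 of them in AgRP-Gq;POMC-Gi replicate 2.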

How the results depend on the processing

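The count of genes called in mural nuclei, 25, became 44 with RLE factors, 9 in DESeq2, 59 with no filter on genes, 41 with a replicate block, 43 in nuclei without endothelial UMIs, 5 in thinned nuclei and 11 in nuclei without neuron UMIs, the last a setting chosen after seeing the data. It ranged from 7 to 26 when libraries were left out in turn. In cluster 13 the count of 26 became 16 with library size only, 2 in DESeq2 and 50 with no filter, and ranged from 13 to 60; in cluster 98 it ranged from 0 to 1, and for the difference between mural and endothelial nuclei from 1 to 30. The block kept all 25 mural calls and 24 of the 26 in cluster 13 (30 called), losing Dnm3 and Malat1; with 2 libraries per group, same-numbered libraries had deviations that correlated over genes at r of 0.211 in mural nuclei, 0.217 in cluster 13 and 0.396 in cluster 98, and 2 pairs are too few for the numbers to be taken as a pairing. The direction turned for Lingo2 (-0.12) and Dlg2 (-0.55) in nuclei without neuron UMIs, and for Robo1 without AgRP-Gq;POMC-Gi replicate 2 (-0.10 in mural nuclei, -0.23 in cluster 13; 1.82 and 1.87 without AgRP-Gq;POMC-Gi replicate 1). Causes were not tested. The mural share difference ranged from -1.68 to -1.10 and that of cluster 98 from -7.94 to -5.15 percentage points with libraries left out. Contractile genes above 2-fold in cluster 98 numbered between 19 and 22 with libraries left out and up to 23 under the other alternatives, and pericyte genes above 2-fold in cluster 13 between 14 and 16 and up to 17. The other outcomes were counted once per gene and alternative in which the gene was tested. Of the 25 mural calls, 15 were tested again in thinned nuclei and 20 in nuclei without neuron UMIs. They cover the called genes and, without a test, the cluster 98 to cluster 13 ratios of some named genes. Of these outcomes, 446 stayed the same, in direction and call or, for a ratio, within the SD over libraries. Another 208 kept direction and lost the call, 4 reversed, and 2 ratios moved. With 103 mural nuclei in the smallest library, genes with few UMIs rest on few nuclei.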
